A study of Arabidopsis with 26 samples.

Results

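BCL7A and BCL7B are paralogous accessory subunits of SWI/SNF chromatin remodelling complexes. Their GFP-tagged forms were compared here through 2 of the 26 peak lists of an anti-GFP ChIP-seq series on 14-day-old Arabidopsis seedlings. The lists were chosen by file name: BCL7A-GFP in the bcl7a mutant background and BCL7B-GFP in the bcl7b background, with 1 list for each line. The sample labels of both lists state another line, SWI3D-GFP in swi3d-1 syd-5, so every statement below holds as far as the file names do. Labels and file names state different lines for 19 of the 26 lists.

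SWI/SNF complexes use the energy of ATP to move or evict nucleosomes, which changes the access of transcription factors and polymerase to DNA. In Arabidopsis the catalytic subunit can be BRAHMA (BRM), SPLAYED (SYD) or a MINUSCULE protein such as MINU2. Each ATPase assembles with its own partners beside shared subunits; the scaffold protein SWI3C goes with BRM and its relative SWI3D with SYD. BCL7 proteins are small subunits first described in mammals, where they belong to the ATPase module of the complex.

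The BCL7 lists were set beside 2 BRM-GFP brm-1 lists, 4 SYD-N-GFP syd-5 lists and 2 MINU2-GFP minu2-1 lists, all by file name. The remaining lists, by file name, were 2 of BRM-GFP brm-1 syd-5, 2 of SYD-N-GFP syd-5 brm-1, 2 of SYD-N-GFP syd-5 swi3d-1, 3 of SWI3D-GFP swi3d-1, 2 of SWI3D-GFP swi3d-1 syd-5 and 1 each of BSH-GFP bsh, SWI3A-GFP swi3a-3, SWI3C-GFP, SWP73A-GFP swp73a-2 and SWP73B-GFP swp73b-1. The lines named for a mutant carry the tagged protein in plants mutant for its own gene, and the double mutants lack a second subunit as well. The promoter that drives each tag is not given in the sources used here. With 1 list for each BCL7 line there is no replicate of either, so no test between the lines was possible and no p-value is given. The spread between lists of 1 line was taken from the 15 pairs of lists that share a line by file name. Intervals are Wilson 95% intervals and cover counting error only. Read depth is unknown, since the lists hold peaks and no read totals.

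Both BCL7 lists were among the longest of the series. The BCL7A list held 20795 peaks on chromosomes 1 to 5 and the BCL7B list held 19877, the second and the third most of the 26 lists, which ranged between 4383 and 21329. The BCL7A peaks took up 21.5 Mb at a median of 750 bp each, and the BCL7B peaks 22.8 Mb at a median of 775 bp each. The median fold enrichment, the authors' own value for each peak, was 3.12 in BCL7A and 3.51 in BCL7B. The strongest −log10 q, the significance of a peak after correction for multiple testing, was 253 in BCL7A and 341 in BCL7B. Neither list had a peak in the chloroplast or mitochondrial genome, as in 12 of the other 24 lists; the other 12 did, and their widest nuclear peak was 3838 to 3877 bp, against 5697 to 22566 bp in the 14 lists without. The BRM and SYD lists are of the same kind as the BCL7 lists, and the MINU2 lists are of the other kind.

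A check added after the data were seen bears on which record to read. A peak over the gene of the tagged subunit can have an unusually high −log10 q for its fold enrichment. For each list, the −log10 q of such a peak was divided by the median of the 201 peaks nearest to it in fold. This ratio exceeded 1.3 in 17 of the 20 cases in which the file name states BRM, SYD, SWI3A, SWI3C, SWI3D or BSH, and in 8 of the 20 cases by label. Where the list is not named for the gene it exceeded 1.3 in 9 of 136 cases by file name and in 18 of 136 by label. At the SWI3D gene, the tag that the labels state, the ratio was 1.00 in both the BCL7A and the BCL7B list. The check is weak for this gene across lines, since only 2 of the 5 lists named SWI3D by file name exceeded 1.3 there. Those 2 were the lists named SWI3D-GFP swi3d-1 syd-5, the line that the labels state, with 1.58 and 1.43. The 3 lists named SWI3D-GFP swi3d-1 did not exceed 1.3.

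BCL7A and BCL7B occupied largely the same regions. Of the BCL7A peaks, 19227 (92.5%, interval 92.1% to 92.8%) overlapped a BCL7B peak by at least 1 bp, and 18387 BCL7B peaks (92.5%, interval 92.1% to 92.9%) overlapped a BCL7A peak. Between lists of 1 line this share was 60.3% to 95.2%, and 9 of its 30 values were at or above the BCL7 share. The base-pair Jaccard index is the share of all covered bases that both lists cover, and it was 0.750 for BCL7A with BCL7B. It was 0.415 to 0.793 with a median of 0.702 between lists of 1 line, and 3 of the 15 pairs were at or above the BCL7 value. The difference between the paralogues in the regions they cover was therefore no larger than the spread between lists that share a line. The lowest share and index in that spread came from 1 pair, the SYD-N-GFP syd-5 swi3d-1 lists, with 5227 and 4383 peaks. Lists of SYD-N-GFP syd-5 and of SWI3D-GFP swi3d-1 enter several pairs each, so the 15 pairs are not independent.

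No other list came as close to either paralogue. The highest index with another list was 0.649 for BCL7A and 0.648 for BCL7B, both with SYD-N-GFP syd-5 bio2. Of the 24 other lists, 20 had a higher index with BCL7A and 4 with BCL7B, and those 4 were the lists named BRM-GFP. The first BRM-GFP brm-1 list, for example, had an index of 0.585 with BCL7A and 0.640 with BCL7B. The first MINU2-GFP minu2-1 list had 0.478 with BCL7A and 0.454 with BCL7B. BCL7A covers fewer bases than BCL7B, 21.5 against 22.8 Mb, and the part of this in the index was not tested.

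Merging the peaks of both lists where they overlapped gave 20961 regions. Of these, 1568 (7.48%) held a BCL7A peak alone, 1490 (7.11%) held a BCL7B peak alone and 17903 (85.4%) were shared. Most shared regions (16347, 91.3%) held exactly 1 peak of each paralogue. In 1090 shared regions 1 BCL7B peak spanned 2 or more BCL7A peaks, and in 376 regions 1 BCL7A peak spanned 2 or more BCL7B peaks.

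The separate regions were weak and narrow. Strength was expressed as the percentile of −log10 q within a peak's own list, from the weakest to 100 for the strongest. The median percentile was 10.4 at BCL7A-only regions, 8.68 at BCL7B-only regions and 54.4 at shared regions. The median width was 390.5 bp at BCL7A-only regions, 389 bp at BCL7B-only regions and 926 bp at shared regions. BCL7A peaks without a partner had a median fold enrichment of 2.07 and BCL7B peaks without a partner 2.09. When the peaks were sorted into 10 bins by −log10 q, in the weakest bin 60.8% of BCL7A peaks and 59.5% of BCL7B peaks had a partner in the other list. In the strongest bin, 99.9% of BCL7A peaks and 100% of BCL7B peaks did. Only 3 BCL7A-only regions and 0 BCL7B-only regions lay in the top decile. Separate peaks were not mostly near misses: the nearest peak of the other paralogue lay a median of 1465 bp from a BCL7A-only peak and 1412.5 bp from a BCL7B-only peak, and it lay within 500 bp of 14.7% of BCL7A-only and 16.1% of BCL7B-only peaks.

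**Figure D1:**
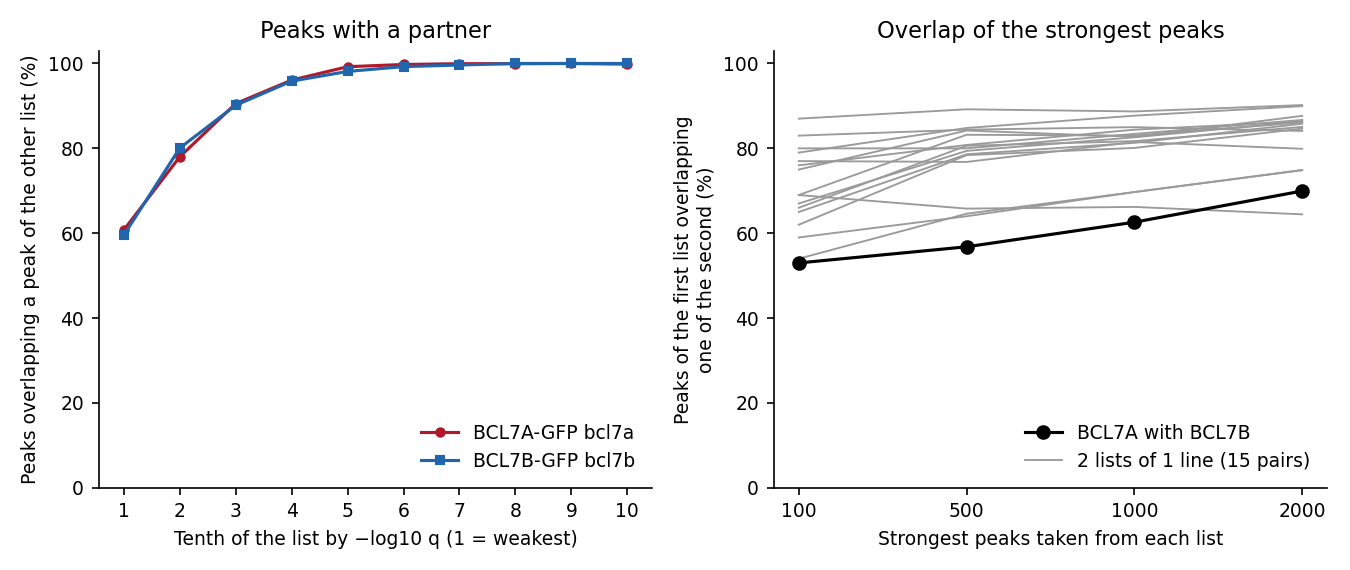
Left, the percent of BCL7A (red circles) and BCL7B (blue squares) peaks that overlap a peak of the other list, in 10 bins from the weakest to the strongest −log10 q; the share is 60.8% for BCL7A and 59.5% for BCL7B in the weakest bin and near 100% from the fifth bin on. Right, the percent of the strongest 100, 500, 1000 and 2000 BCL7A peaks that overlap one of as many strongest BCL7B peaks (black), with the same for the 15 pairs of lists of 1 line (grey); the BCL7 line lies below all grey lines up to 1000 peaks.

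The separate regions differed in where they lay. The strongest summit was inside an annotated gene at 32.5% of BCL7A-only regions (interval 30.3% to 34.9%), at 53.8% of BCL7B-only regions (interval 51.3% to 56.3%) and at 59.4% of shared regions (interval 58.7% to 60.2%). The median distance from the summit to the nearest end of a gene was 342 bp at BCL7A-only regions, 244.5 bp at BCL7B-only regions and 162 bp at shared regions. BCL7A-only summits thus lay outside genes more often than BCL7B-only summits, by more than counting error, although both classes were equally weak and narrow. BCL7A-only regions had a peak in a median of 4 of the other 24 lists and BCL7B-only regions also in 4, against 17 for shared regions. No other list had a peak at 188 BCL7A-only regions (12.0%), at 185 BCL7B-only regions (12.4%) and at 40 shared regions (0.223%).

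The order of the peaks by strength was close but not as close as between most lists of 1 line. Peaks were paired where each was the other's best partner by overlapped bases, which gave 17937 pairs. Spearman's correlation of −log10 q over these pairs was 0.833, and 12 of the 15 pairs of lists of 1 line were at or above it, with a range of 0.641 to 0.955. The pairs share their build and peak caller, and the value is a description. The median absolute difference in percentile was 9.44 points. In 12.0% of pairs the paralogues were more than 25 points apart, 1088 pairs with the higher percentile in BCL7A and 1068 with the higher in BCL7B.

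The very strongest peaks overlapped less than in lists of 1 line. Of the 100 strongest BCL7A peaks, 53.0% overlapped one of the 100 strongest BCL7B peaks, against 54.0% to 87.0% between lists of 1 line. With the 500 strongest peaks the share was 56.8% of BCL7A peaks and 57.0% of BCL7B peaks, against 64.0% to 89.2%. With the 1000 strongest it was 62.6% of BCL7A peaks and 62.2% of BCL7B peaks, against 66.2% to 88.7%. With the 2000 strongest, 69.95% of BCL7A peaks and 68.95% of BCL7B peaks, 1 of the 15 pairs was lower. These top peaks nearly all had a partner in the other list. All of the top 100 of each list did, with a median partner percentile of 99.5 for the BCL7A peaks and 99.6 for the BCL7B peaks. The lowest partner percentile was 94.9 for the BCL7A peaks and 17.2 for the BCL7B peaks. The top 100 peaks also differed in shape, with a median width of 1730.5 bp in BCL7A and 2852 bp in BCL7B.

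**Figure D2:**
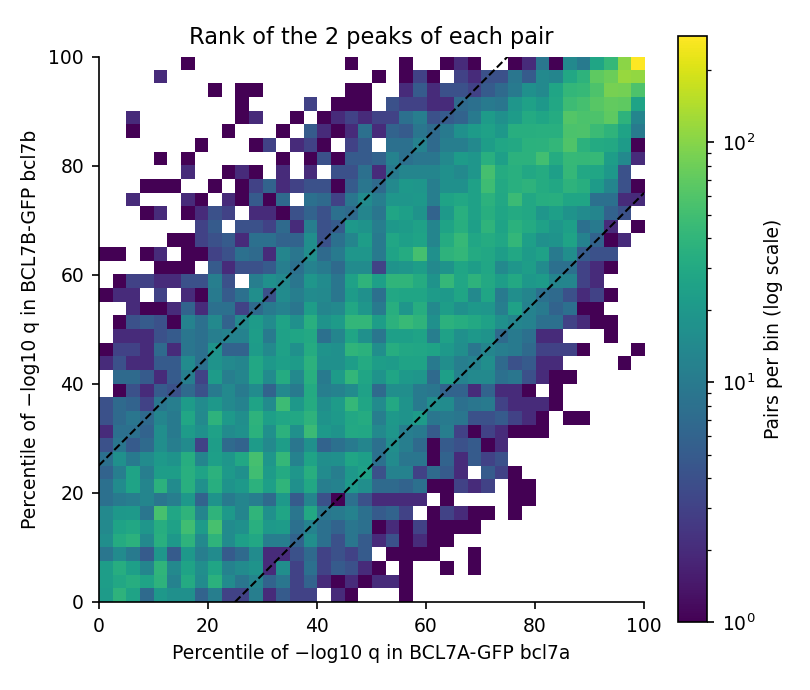
Percentile of −log10 q in BCL7A (x axis) and in BCL7B (y axis) for the 17937 paired peaks, binned, with the number of pairs in a bin given by colour on a log scale; dashed lines mark a difference of 25 points. Pairs gather at the top right, and 1088 lie below the lower dashed line and 1068 above the upper line.

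The strongest shared regions, chosen by the mean percentile over both lists, stood at or near genes. At AT1G04000 (chr1:1027672-1029635, TAIR10) the fold enrichment was 12.1 in BCL7A and 18.7 in BCL7B. At SYP71, which encodes a syntaxin of the membrane fusion machinery (chr3:2989133-2989947), it was 15.1 in BCL7A and 17.7 in BCL7B, and this was the strongest BCL7A peak by −log10 q. At AT3G10040 (chr3:3096003-3099247) the fold was 10.4 in BCL7A and 18.4 in BCL7B. Between OFP1, a gene for a transcriptional repressor of the OVATE family, and AT5G01850 (chr5:331318-332708) it was 11.8 in BCL7A and 15.0 in BCL7B. At the gene annotated Cand1 (chr1:21363424-21365217) it was 10.2 in BCL7A and 17.4 in BCL7B. All of these regions had peaks in the 2 BRM, 4 SYD and 2 MINU2 lists. The SYP71 region differed among the ATPases: it ranked at percentile 99.9 in both MINU2 lists, at 75.1 and 85.5 in the BRM lists and between 38.1 and 68.6 in the SYD lists.

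Of the BCL7A-only regions the strongest lay inside a SWI/SNF gene. A BCL7A peak within SYD (chr2:12058951-12059606) had a fold enrichment of 7.86 and a percentile of 99.4, and another within the same gene (chr2:12057491-12057892) had a fold of 6.85 and a percentile of 98.5. Neither had a peak in BCL7B or in any of the other 24 lists. BCL7A also had a peak alone at AT3G44570 (chr3:16158086-16158757), with a fold of 6.25 and a percentile of 97.2, where 5 other lists had one. Within PKL, which encodes the CHD3 chromatin remodeller PICKLE (chr2:10722621-10722919), the BCL7A peak had a fold of 3.91 and a percentile of 72.3, and 0 other lists had a peak. Between AT3G11350 and AT3G11370 (chr3:3560533-3561033) the BCL7A peak had a fold of 3.77 and a percentile of 69.1, with peaks in 15 other lists that include both BRM and all 4 SYD lists.

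BCL7B-only regions reached lower ranks. The strongest lay within AT3G45260 (chr3:16596383-16596891), with a fold enrichment of 4.32 and a percentile of 67.4 in BCL7B. It had a peak in 18 other lists, both BRM and all 4 SYD lists among them, and in no MINU2 list. The next lay within ATR1, a gene for a reductase that supplies electrons to cytochrome P450 enzymes (chr4:12666749-12667372), with a fold of 4.17 and a percentile of 64.8 and peaks in 14 other lists. The others lay within AT4G25940 (fold 4.13, 10 other lists), within AT3G56210 (fold 4.08, 7 other lists) and between the cytochrome P450 genes CYP71B19 and CYP71B20 (fold 3.98, 13 other lists). Their percentiles were 63.8, 62.9 and 61.0.

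Paired peaks had like widths, with BCL7B slightly wider at the strong ones. The log2 ratio of BCL7A over BCL7B width had a median of −0.05 with quartiles of −0.29 and 0.15, inside the range of −0.31 to 0.26 between lists of 1 line. The BCL7A peak was the wider in 42.3% of pairs and the BCL7B peak in 57.4%. The share in which BCL7A was wider was lower at strong pairs, with 50.1% of pairs at a mean percentile up to 25 and 33.6% above 75. Where the wider peak exceeded 3 kb the median log2 ratio was −0.21.

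Very broad peaks were more numerous in BCL7B. Peaks of 3 kb or more numbered 856 in BCL7A, where they made up 17.1% of the covered bases, and 1254 in BCL7B, where they made up 24.7%. The widest was 15300 bp in BCL7A and 22566 bp in BCL7B. Every broad peak of either list had a partner. A broad partner was found for 87.0% of the broad BCL7A peaks and for 58.5% of the broad BCL7B peaks. Broad BCL7B peaks overlapped 2 or more BCL7A peaks in 47.5% of cases, and broad BCL7A peaks overlapped 2 or more BCL7B peaks in 15.8%. All broad peaks of both lists lay at regions with a BRM and a SYD peak, and 94.98% of those of BCL7A and 94.1% of those of BCL7B at regions with a MINU2 peak. Of all shared regions wider than 1000 bp, 92.5% had a BRM peak, 96.8% a SYD peak and 85.0% a MINU2 peak. A wide region meets the overlap rule more easily, and the part of width in these shares was not tested.

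Summits of paired peaks lay a median of 57 bp apart, with quartiles of 24 and 120 bp. Between lists of 1 line the median was 27 to 65 bp, and 1 of the 15 pairs was at or above the BCL7 value. The summits were within 50 bp in 46.1% of BCL7 pairs, within 100 bp in 69.8% and within 200 bp in 84.9%. In each of these shares 14 of the 15 pairs of lists of 1 line were at or above the BCL7 value. The distance shortened with strength, with a median of 76 bp at a mean percentile up to 25 and 43 bp above 75. It lengthened with width, with a median of 48 bp where the wider peak was up to 500 bp and 96 bp where it exceeded 3 kb.

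**Figure D3:**
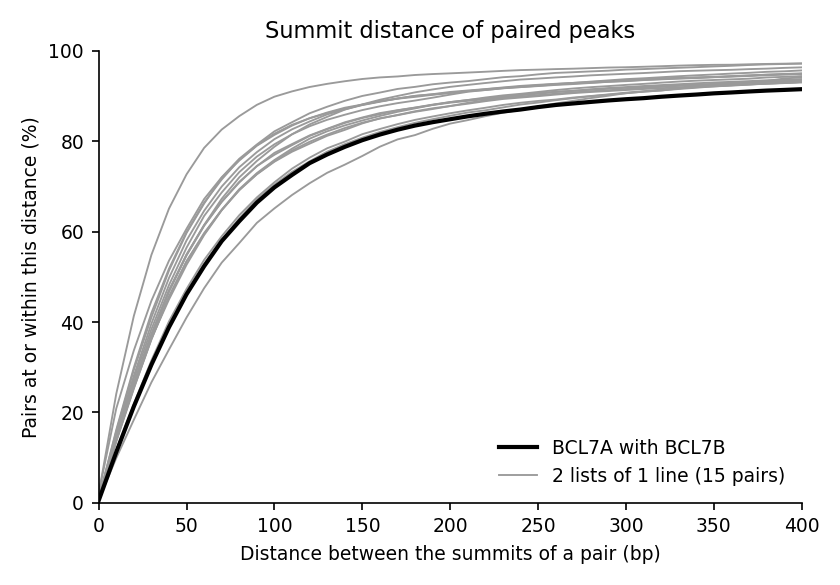
Percent of paired peaks whose summits lie at or within a given distance in bp, for BCL7A with BCL7B (black) and for the 15 pairs of lists of 1 line (grey). The BCL7 curve passes 46.1% at 50 bp and 84.9% at 200 bp and runs along the lower edge of the grey curves.

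The ATPases were set against the BCL7 regions next. A region was counted for an ATPase where at least 2 lists of its line had a peak that overlapped it by at least 1 bp. Over all BCL7 regions these shares were 61.5% for BRM, 71.3% for SYD and 70.4% for MINU2, and over the 23012 regions of all 26 merged lists they were 53.3%, 63.0% and 64.2%. BRM was found at 145 BCL7A-only regions (9.25%, interval 7.91% to 10.8%), at 372 BCL7B-only regions (24.97%, interval 22.8% to 27.2%) and at 12371 shared regions (69.1%, interval 68.4% to 69.8%). SYD was found at 487 BCL7A-only regions (31.1%, interval 28.8% to 33.4%), at 505 BCL7B-only regions (33.9%, interval 31.5% to 36.3%) and at 13960 shared regions (78.0%, interval 77.4% to 78.6%). MINU2 was found at 278 BCL7A-only regions (17.7%, interval 15.9% to 19.7%), at 264 BCL7B-only regions (17.7%, interval 15.9% to 19.7%) and at 14215 shared regions (79.4%, interval 78.8% to 80.0%). Each ATPase was thus found far more often at shared regions than at separate ones, although the shared regions were also wider and stronger. Of the 3 only BRM differed between the separate classes beyond counting error. When only peaks reaching a −log10 q of 10 were kept in every list, the classes were redrawn from the kept peaks. A region where the peak of the other paralogue fell below this limit then counted as separate, so these are not the same regions. Between the redrawn separate classes all 3 ATPases differed. BRM then stood at 6.83% of 908 BCL7A-only and 27.3% of 2211 BCL7B-only regions, SYD at 27.1% of the BCL7A-only and 38.4% of the BCL7B-only regions, and MINU2 at 42.6% of the BCL7A-only and 24.6% of the BCL7B-only regions.

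The BRM difference appeared in both BRM lists. The first BRM-GFP brm-1 list had a peak at 17.0% of BCL7A-only and 32.8% of BCL7B-only regions, and the second at 15.4% of BCL7A-only and 31.3% of BCL7B-only regions. In the double mutant, the BRM-GFP brm-1 syd-5 lists had a peak at 15.2% and 19.4% of BCL7A-only regions and at 17.1% and 23.0% of BCL7B-only regions. The difference between the classes was smaller there in both lists, a difference between lines that was not tested. For SYD the direction differed between lists: bio1 and bio2 were at 24.3% and 36.2% of BCL7A-only regions and at 30.1% and 39.9% of BCL7B-only regions, while bio3 and bio4 were at 23.5% and 23.0% of BCL7A-only regions and at 22.6% and 21.6% of BCL7B-only regions. The MINU2 lists were at 20.9% and 27.1% of BCL7A-only regions and at 21.1% and 30.0% of BCL7B-only regions.

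**Figure D4:**
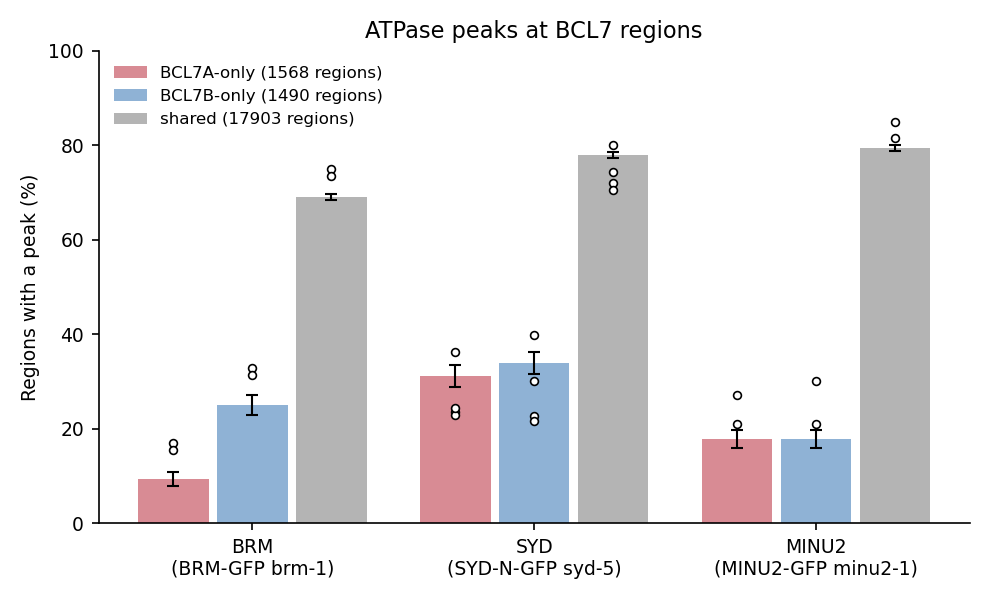
Percent of BCL7A-only (red, 1568), BCL7B-only (blue, 1490) and shared (grey, 17903) regions with a peak in at least 2 lists of BRM-GFP brm-1, SYD-N-GFP syd-5 or MINU2-GFP minu2-1. Bars show the share with its Wilson 95% interval, and white points show each list of the line alone; BRM stands at 9.25% of BCL7A-only, 24.97% of BCL7B-only and 69.1% of shared regions.

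The gap in BRM between the separate classes was also present among regions of like rank and among regions of like width. At percentiles of 25 to 50, BRM was at 14.3% of 189 BCL7A-only regions (interval 10.01% to 19.99%), at 46.3% of 177 BCL7B-only regions (interval 39.1% to 53.7%) and at 58.3% of 5024 shared regions. At percentiles up to 10 it was at 7.55% of BCL7A-only, 17.6% of BCL7B-only and 25.1% of shared regions. At widths of 600 to 1000 bp it was at 6.99% of 186 BCL7A-only regions, at 47.8% of 161 BCL7B-only regions and at 60.04% of shared regions. MINU2 in the same width class was at 11.8% of BCL7A-only, 16.8% of BCL7B-only and 80.4% of shared regions. At widths up to 400 bp shared regions stood closer to the separate ones. BRM was there at 8.28% of BCL7A-only, 15.6% of BCL7B-only and 17.2% of shared regions. SYD was at 24.4% of BCL7A-only, 26.4% of BCL7B-only and 33.3% of shared regions. MINU2 was at 14.6% of BCL7A-only, 16.1% of BCL7B-only and 45.8% of shared regions.

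The ATPases also combined differently. All 3 were present at 0.191% of BCL7A-only regions, at 1.54% of BCL7B-only regions and at 51.5% of shared regions. SYD without the other 2 stood at 21.7% of BCL7A-only, 16.8% of BCL7B-only and 4.31% of shared regions. MINU2 alone stood at 13.4% of BCL7A-only, 12.1% of BCL7B-only and 13.8% of shared regions. No peak of any BRM, SYD or MINU2 list was found at 437 BCL7A-only regions (27.9%), at 340 BCL7B-only regions (22.8%) and at 154 shared regions (0.860%). Summits lay in genes more often where MINU2 had a peak than where it had none. The shares were 57.9% against 27.1% of BCL7A-only, 72.7% against 49.8% of BCL7B-only and 65.6% against 35.8% of shared regions. For SYD the order was the opposite, with 20.9% against 37.7% of BCL7A-only, 33.7% against 64.2% of BCL7B-only and 53.8% against 79.5% of shared regions. For BRM it differed between classes, with 41.4% against 31.6% of BCL7A-only, 59.1% against 52.1% of BCL7B-only and 58.2% against 62.3% of shared regions.

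The strongest shared regions with no ATPase peak in any list were of lower rank. The first lay within IAR3, a gene for an enzyme that releases auxin from its conjugates (chr1:19201301-19201964), with a fold of 2.67 in BCL7A and 3.13 in BCL7B. The second lay between AT5G08500 and AT5G08505 (chr5:2751583-2752197), with a fold of 2.85 in BCL7A and 2.66 in BCL7B. Among BCL7A-only regions with no ATPase peak the strongest were those within SYD. Among BCL7B-only regions they were one within EMB506 (chr5:16063905-16064315), with a fold of 3.32, and one between RLP46 and AT4G04260 (chr4:2036155-2036869), with a fold of 3.27.

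Where both paralogues had a peak but ranked it differently, the ATPases divided further. BRM stood at 45.4% of the 1088 pairs over 25 points higher in BCL7A, at 85.8% of the 1068 pairs over 25 points higher in BCL7B and at 69.7% of the 15781 pairs within 25 points. SYD stood at 69.9% of those higher in BCL7A, at 89.0% of those higher in BCL7B and at 77.8% of those within. MINU2 went the other way, with 81.2% of those higher in BCL7A, 69.4% of those higher in BCL7B and 80.0% of those within. The pairs higher in BCL7A had median widths of 734 bp in BCL7A and 636.5 bp in BCL7B, and the pairs higher in BCL7B had 724.5 bp in BCL7A and 1023 bp in BCL7B.

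Other subunits followed the same division. The SWI3C-GFP list had a peak at 33.7% of the pairs higher in BCL7A and at 69.3% of those higher in BCL7B. The SWP73A-GFP swp73a-2 list had one at 15.7% of those higher in BCL7A and at 51.3% of those higher in BCL7B. In the other direction stood SWI3A-GFP swi3a-3, with 87.3% of the pairs higher in BCL7A and 75.6% of those higher in BCL7B, and BSH-GFP bsh, with 88.3% of those higher in BCL7A and 84.6% of those higher in BCL7B. SWP73B-GFP swp73b-1 had a peak at most of both, 94.8% of those higher in BCL7A and 92.2% of those higher in BCL7B. Of the 24 other lists, 6 were more often at the pairs higher in BCL7A and 18 at those higher in BCL7B.

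Rank agreement with the other lists gave the same order. Over the pairs at which a list had a peak, Spearman's correlation of −log10 q with both BRM-GFP brm-1 lists was 0.498 for BCL7A, against 0.669 and 0.668 for BCL7B. With SWI3C it was 0.568 for BCL7A and 0.681 for BCL7B, and with SWP73A 0.513 for BCL7A and 0.656 for BCL7B. With the MINU2 lists it was 0.508 and 0.522 for BCL7A, against 0.363 and 0.378 for BCL7B. With SWI3A it was 0.421 for BCL7A and 0.270 for BCL7B, with BSH 0.550 for BCL7A and 0.414 for BCL7B, and with SWP73B 0.729 for BCL7A and 0.670 for BCL7B. These correlations run over 7200 to 16610 pairs that share the BCL7 libraries. The division moved with the kind of list: the correlation was higher with BCL7A for 5 of the 12 lists with organelle peaks and for 1 of the 12 without, and its part in the result was not tested. SWI3C and SWP73A, which went with BCL7B, and MINU2, SWI3A and BSH, which went with BCL7A, are all lists with organelle peaks. Among the 12 lists without them, 11 had the higher correlation with BCL7B.

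**Figure D5:**
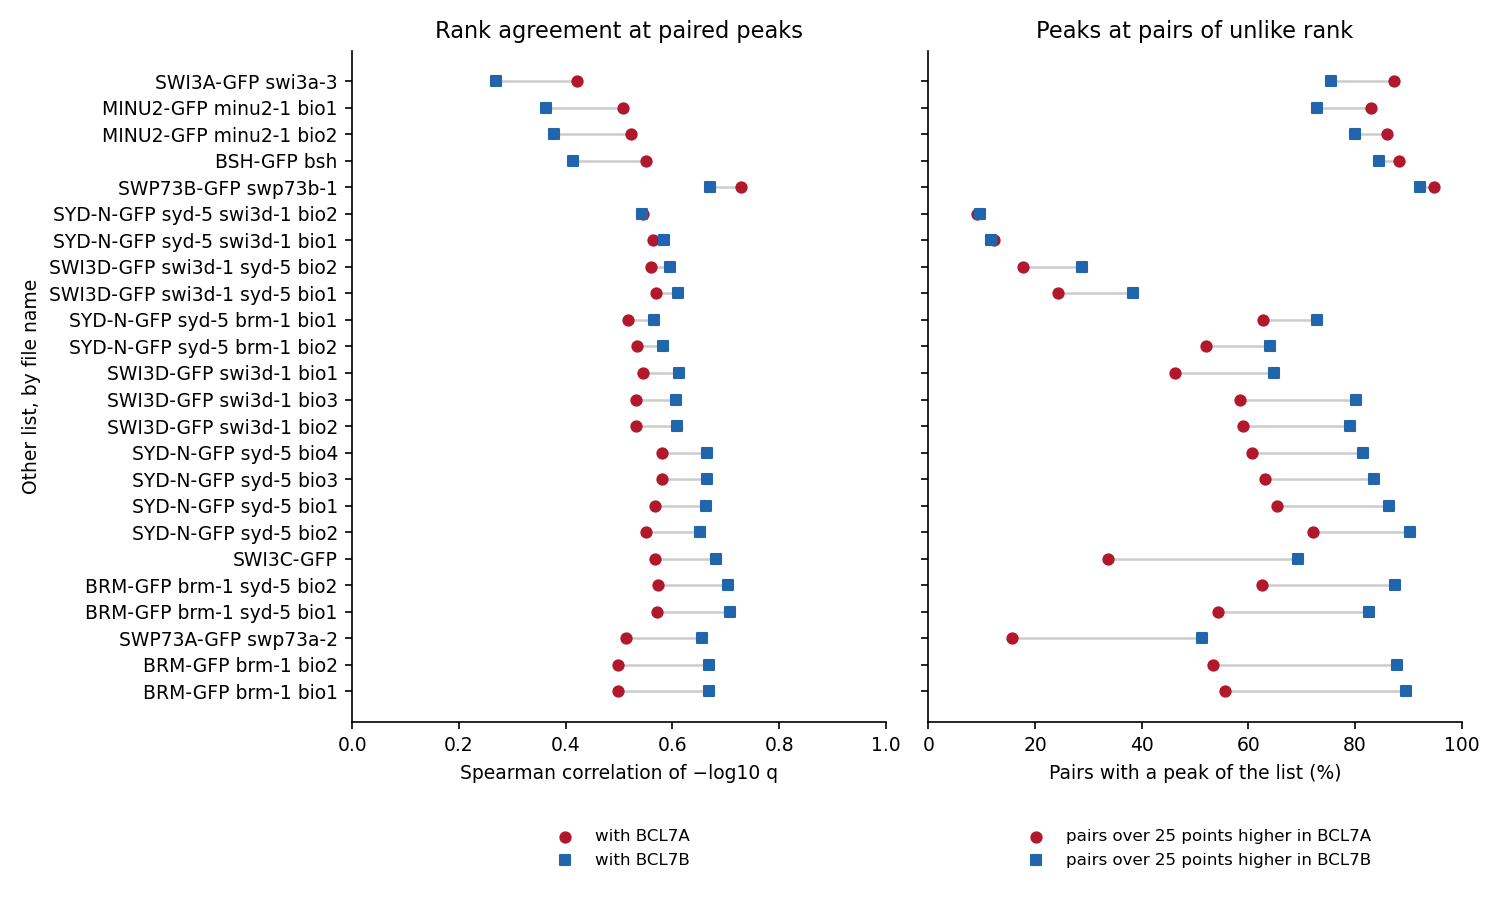
For each of the 24 other lists, named by file name, the left panel gives Spearman's correlation of its −log10 q with BCL7A (red circles) and with BCL7B (blue squares) over paired peaks. The right panel gives the percent of pairs with a peak of that list among pairs over 25 points higher in BCL7A (red) and among those over 25 points higher in BCL7B (blue); lists at the top lean to BCL7A and those at the bottom, both BRM-GFP brm-1 lists last, to BCL7B.

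The pairs with the largest difference in rank were taken from those in the top 25% of either list. Their choice rests on that difference, so the values are a description. Higher in BCL7A was a region between AT3G25790 and PP2AA2, which encodes a scaffold subunit of protein phosphatase 2A (chr3:9419387-9419980), with a fold of 4.23 in BCL7A and 2.42 in BCL7B. A region between AT3G08947 and HCC1, a gene for a copper chaperone of mitochondria (chr3:2726805-2727547), had a fold of 4.04 in BCL7A and 2.32 in BCL7B; 0 of the 2 BRM lists and both MINU2 lists had a peak there. A region between the chitinase gene CHIA and AT5G24100 (chr5:8146073-8147053) had 4.27 in BCL7A and 2.51 in BCL7B.

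The differences in the other direction were larger. Between APC10 and HBI1, the second a gene for a growth-promoting bHLH transcription factor (chr2:7950993-7953254), the fold was 2.07 in BCL7A and 7.83 in BCL7B, with a percentile of 10.4 in BCL7A and 95.9 in BCL7B. Between AT5G24210 and AT5G24215 (chr5:8215928-8221558) it was 2.11 in BCL7A and 7.73 in BCL7B. Between AT1G12080 and ELP, a gene for an extensin-like protein (chr1:4085503-4090870), it was 1.98 in BCL7A and 6.40 in BCL7B. In the same order the BCL7A peaks were 735, 1118 and 607 bp wide and the BCL7B peaks 2262, 5631 and 5368 bp. Where several BCL7A peaks lie under a broad BCL7B peak, the BCL7A value is that of the one with the most overlapped bases. A difference of more than 50 points was found at 29 pairs higher in BCL7A and 70 pairs higher in BCL7B.

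Lists of genes from pathways that SWI/SNF complexes are known to act in were examined by peaks over the gene itself. Of 143 listed genes, 136 matched the annotation. A peak of both paralogues lay over 97 of them (71.3%), a BCL7A peak alone over 1, a BCL7B peak alone over 3 and neither over 35. Over all 27444 protein-coding genes, 66.8% had a BCL7A peak and 66.8% a BCL7B peak, 63.8% had both, 3.01% a BCL7A peak alone and 3.06% a BCL7B peak alone. The gene with BCL7A alone was KNAT2, a KNOX homeobox gene, at a percentile of 8.79. Those with BCL7B alone included PRR3, a clock-associated pseudo-response regulator, at 12.9, and CUC1, a boundary gene of the NAC family, at 46.7.

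Beside the 63.8% of all protein-coding genes with a peak of both, the lists ranged widely. All 17 light signalling genes, 12 of 13 circadian clock genes, 14 of 16 abscisic acid genes and 14 of 18 gibberellin genes had a peak of both. So did 12 of 16 flowering time genes, 8 of 12 auxin transport genes, 3 of 9 floral organ identity genes, 4 of 13 boundary and meristem genes and 1 of 10 seed storage genes. The strongest shared member of each list is given with its fold enrichment. In auxin transport it was the influx carrier gene LAX1, with 10.8 in BCL7A and 12.1 in BCL7B. The abscisic acid receptor gene PYL5 had 6.48 in BCL7A and 11.3 in BCL7B, and the gibberellin receptor gene GID1B had 6.11 in BCL7A and 8.58 in BCL7B. The photoreceptor gene PHYA had 6.11 in BCL7A and 7.30 in BCL7B. The clock gene PRR5 had 7.12 in BCL7A and 6.64 in BCL7B, the only one of these with the higher fold in BCL7A. The receptor kinase gene CLV1, which acts in meristem size, had 5.88 in BCL7A and 8.16 in BCL7B. SVP, a MADS-box repressor of flowering, had 3.77 in BCL7A and 5.74 in BCL7B. The floral homeotic gene AP3 had 4.96 in BCL7A and 5.83 in BCL7B, and the oleosin gene OLEO4 had 3.03 in BCL7A and 3.27 in BCL7B. The median fold of all peaks was also higher in BCL7B, 3.51 against 3.12 in BCL7A. By percentile within each list, PRR5, LAX1, PHYA, AP3 and OLEO4 were higher in BCL7A. PYL5, GID1B, CLV1 and SVP were higher in BCL7B. The genes with a peak of neither included, as examples, the florigen gene FT, the stem cell genes WUS and STM and the floral gene AG.

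The SWI/SNF genes themselves leaned to BCL7A. All 12 matched subunit genes had a peak of both, and the percentile of the strongest peak over the gene was higher in BCL7A at 11 of them, with a median difference of 12.4 points. Over all 17501 protein-coding genes with both, it was higher in BCL7A at 53.2% and in BCL7B at 46.8%, with a median difference of 0.718 points. CHC1, which encodes a SWP73-type subunit, had percentiles of 96.1 in BCL7A and 93.0 in BCL7B and was the strongest of this list. BRM had 93.1 in BCL7A and 91.2 in BCL7B, and BSH, the SNF5-type subunit gene, had 90.8 in BCL7A and 81.2 in BCL7B. SWI3B had 70.2 in BCL7A and 40.1 in BCL7B, and CHR23, a MINUSCULE ATPase gene, 43.4 in BCL7A and 30.3 in BCL7B. SWI3D alone was higher in BCL7B, with 58.5 in BCL7A and 69.1 in BCL7B. The value of SYD, 99.4 in BCL7A and 55.8 in BCL7B, rests on the BCL7A-only peaks described above. The abscisic acid genes went the other way, higher in BCL7A at 2 and in BCL7B at 12 of 14, with a median difference of −2.81 points.

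Single genes of these lists differed more, and those named here were chosen after their values were seen. HFR1, a bHLH gene of light signalling, had percentiles of 33.2 in BCL7A and 91.4 in BCL7B. SOC1, a MADS-box gene that promotes flowering, had 38.2 in BCL7A and 90.6 in BCL7B. GA3, which encodes ent-kaurene oxidase of gibberellin synthesis, had 83.0 in BCL7A and 14.4 in BCL7B. Each had a peak in both lists.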

How the data were processed

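Each list is a deposited MACS2-style table of 10 columns. Per the submitters' processing notes the tools were fastp, Bowtie2, MACS2 2.0, deepTools and ChIPseeker and the build was TAIR10; which input or control was used is not given in the sources used here. The authors deposited for each peak its interval, a score (the whole part of 10 times −log10 q), a fold enrichment (a ratio), −log10 p and −log10 q, and the summit as an offset in bp. All values lie past a q of 0.05 (−log10 q of 1.30). Peaks were called per list; duplicate removal is known only from the peak names.

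Lines were taken from file names. Members and gene lists were chosen with earlier results of these data known. On chromosomes 1 to 5, peaks overlapping by at least 1 bp were shared; pairs were mutual best by overlapped bases. Named regions were the 5 strongest of each class, the 3 pairs with the largest percentile difference in each direction among pairs in the top 25% of either list, and the 2 strongest of each class with no ATPase peak; of the gene lists, each member with 1 paralogue alone and the strongest shared member; 1 such member is not reported here. Genes came from RefSeq's TAIR10.1 table, whose chromosomes 1 to 5 are those of TAIR10. It gives no strand, so gene starts, motifs, sequences and the upstream 1000 bp of listed genes were not analysed; summit position against the gene body took their place after the files were seen. Counting was tested on simulated peaks. Tools were numpy 2.4.6, pandas 2.3.3, scipy 1.17.1 and matplotlib 3.10.9.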

Additional observations from a re-analysis of the deposited data

Results flagged for a closer look

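SYD-N-GFP syd-5 is the only line with 4 or more lists, and its lists were looked at in the 3 classes of regions for one that stands apart. At BCL7A-only regions 1 did: SYD-N-GFP syd-5 bio2 had a peak at 36.2% of BCL7A-only regions, while the other SYD lists had 23.0% to 24.3%. Its gap to the nearest list was 0.899 of the whole range. Chance alone gives such a gap in about 1 of 20 groups. Bio2 is also the longest SYD list, with 17283 peaks against 16082 to 16223.

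For the share of regions with a peak, BCL7A-only minus BCL7B-only, all lists of some lines went one way and all lists of other lines the opposite way. None of these differences was tested, since each line has 2 lists. The mean over lists was −15.8 points for BRM-GFP brm-1, −2.78 for BRM-GFP brm-1 syd-5 and −1.53 for MINU2-GFP minu2-1. It was 2.40 points for SYD-N-GFP syd-5 brm-1 and 2.11 for SWI3D-GFP swi3d-1 syd-5. BRM-GFP brm-1 therefore differed by −18.2 points from SYD-N-GFP syd-5 brm-1 and by −17.9 points from SWI3D-GFP swi3d-1 syd-5. BRM-GFP brm-1 syd-5 differed from the same lines by −5.19 and −4.89 points. SYD-N-GFP syd-5 brm-1 differed from MINU2-GFP minu2-1 by 3.93 points, and MINU2-GFP minu2-1 differed from SWI3D-GFP swi3d-1 syd-5 by −3.64 points.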

How the results depend on the processing

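Of 111 alternative values for 15 results, 36 stayed within the spread or interval of the value reported, 74 moved and 1 reversed; causes were not tested. Pairs of values below are BCL7A then BCL7B peaks with a partner, and triples are BCL7A-only, BCL7B-only and shared regions. With overlap of 50% of both peaks the partner shares were 78.5% and 82.1% and the Jaccard index 0.647; with summits within 150 bp they were 70.8% and 74.0% and the summit distance 42 bp. With a −log10 q of at least 10 they were 93.2% and 84.5%, and Spearman's correlation was 0.749. The triples were then 6.83%, 27.3% and 56.1% for BRM, over 908, 2211 and 11873 regions. For SYD they were 27.1%, 38.4% and 66.5%, and for MINU2 42.6%, 24.6% and 69.0%. Here the classes were redrawn from the kept peaks, and a region with a weaker peak of the other paralogue counted as separate. Between these redrawn separate classes SYD and MINU2 differed too. With equal numbers of peaks the partner shares were 94.2% and 90.6%. With the BCL7 lists taken by sample label (chosen after seeing the data; the lists named SWI3C and SWP73A) they were 65.4% and 91.1%, with an index of 0.522, a correlation of 0.712 and a width ratio reversed to 0.22.

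With a peak in any list of the line the triples were 23.2%, 39.1% and 79.5% for BRM, 48.2%, 47.2% and 84.9% for SYD and 30.3%, 33.4% and 87.1% for MINU2. With 50% of the shorter interval, BRM at BCL7A-only regions was 7.40%. With ATPase lists by label, SYD at shared regions was 93.6% and MINU2 was 5.48%, 3.02% and 38.1%. The BRM-GFP brm-1 syd-5 lists, added after seeing the data, gave 10.8%, 12.6% and 67.3%. SYD in every list gave 9.38%, 11.9% and 62.8%, in bio1 and bio2 19.9%, 26.1% and 72.0%, and in bio3 and bio4 14.1%, 14.0% and 65.3%. Leaving out each list in turn gave 15.4% to 17.0%, 31.3% to 32.8% and 73.6% to 75.02% for BRM, where 1 list then suffices, 21.2% to 26.7%, 23.4% to 30.8% and 72.4% to 75.7% for SYD, and 20.9% to 27.1%, 21.1% to 30.0% and 81.5% to 85.0% for MINU2.

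BRM was lower at BCL7A-only than at BCL7B-only regions under every alternative listed. The order for SYD turned with any list, by label and with bio3 and bio4. No paired analysis was possible because each BCL7 line has 1 list and no test was run. Shares near gene starts were not run, since strand was not at hand. Depth is unknown, and a missing peak is a peak not called, not absent binding.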

Other observations

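Within each BCL7 list, −log10 q followed the fold enrichment closely: it was within 10% of the median of the 201 peaks nearest in fold for 99.4% of the peaks of both lists. Outside the strongest end of the lists, 1 BCL7B peak stood apart, over AT5G55210, a gene to which the annotation gives no symbol. Its −log10 q was 87.6 at a fold of 4.56, which is 2.70 times the median of peaks of like fold. The BCL7A peak over the same gene had a −log10 q of 21.7 at a fold of 3.77 and a ratio of 1.00. Over this gene the ratio exceeded 1.3 in 5 of the 26 lists, and the BCL7B value was the highest of the 26. Among the 5 were both SWI3D-GFP swi3d-1 syd-5 lists, the line that the label of the BCL7B list states, with 1.79 and 2.09. The gene was not among those of the check of file names and labels above, and what sets the ratio here was not tested. The gene was picked after its BCL7B value was seen.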
